A study of Mus musculus with 12 samples.

Results

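The genes described here make, sense, carry and dispose of cholesterol. They are 28 genes picked by symbol from tables that list 23183 gene symbols: 18 enzymes of cholesterol synthesis, from acetoacetyl-CoA to the last sterol steps, 4 genes of sterol sensing, 1 enzyme of the side branch to geranylgeranyl, 3 carriers of sterols, and 2 enzymes that hydroxylate or esterify cholesterol. All 28 were found, and all 28 had a mean of at least 1 FPKM (fragments scaled by transcript length and library total) in each comparison, so the filter on low values removed none.

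Cholesterol does not cross the blood-brain barrier, and the brain makes its own. The mevalonate pathway builds farnesyl pyrophosphate, squalene synthase joins farnesyl units to squalene, and squalene is closed to lanosterol and trimmed to cholesterol in the endoplasmic reticulum. When sterols run low, SCAP escorts the transcription factor SREBP2 to the Golgi, where it is cut and freed to switch on genes of the pathway, and INSIG proteins hold it back when sterols are plentiful. Oligodendrocytes make much cholesterol for myelin, astrocytes supply neurons through lipoproteins, and neurons clear an excess as 24-hydroxycholesterol, the product of CYP46A1.

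Male C57BL/6 mice, 6 in all, gave the libraries. This is an inbred strain, and the labels name no other allele. Irradiated mice (n = 3) had received X-rays to the abdomen as a model of lasting gut injury, with 13 Gy in the library names, and control mice (n = 3) had not been irradiated. Hippocampus and prefrontal cortex of every mouse were sampled in the chronic phase and each gave 1 RNA-seq library, 12 in all. Age and time after irradiation are not stated in the labels.

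Promoters are shown for 2 members, as the 250 bases before the RefSeq start of transcription on GRCm38.p6 (mm10). Hmgcs1 is shown because its promoter, alone among those of the matched members, held a match to the sterol response element, the site that SREBP2 binds. Cyp46a1 is shown because it differed most between the regions, a choice made after its values were seen. Capitals mark the sterol response element (TCACNCCAC, searched on both strands) and the CCAAT box (CCAAT, which reads ATTGG on the other strand). Hmgcs1 lies on the plus strand at chr13:119690101-119690350, and Cyp46a1 on the plus strand at chr12:108334066-108334315.
Hmgcs1: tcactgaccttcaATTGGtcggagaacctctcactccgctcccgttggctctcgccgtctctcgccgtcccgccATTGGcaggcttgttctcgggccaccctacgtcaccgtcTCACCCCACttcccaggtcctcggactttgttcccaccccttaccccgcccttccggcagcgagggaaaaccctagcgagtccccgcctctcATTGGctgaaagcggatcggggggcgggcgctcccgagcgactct
Cyp46a1: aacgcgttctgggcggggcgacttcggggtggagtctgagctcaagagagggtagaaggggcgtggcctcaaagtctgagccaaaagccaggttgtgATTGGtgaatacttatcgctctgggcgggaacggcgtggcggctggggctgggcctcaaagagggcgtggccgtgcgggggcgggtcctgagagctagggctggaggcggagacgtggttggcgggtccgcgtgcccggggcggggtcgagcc
The Hmgcs1 match, TCACCCCAC, begins at position -137 relative to the start, and 3 CCAAT boxes stand in the printed bases. The Cyp46a1 bases hold 1 CCAAT box and no match to the sterol response element. Promoters of 23 of the 28 members were matched in the RefSeq table, in windows that also include 50 bases after the start. A match to the sterol response element letters stood in 1 of these 23 members (4.35%), against 1.44% of 27025 genes. Other forms of the element were not searched, nor were the promoters of the unmatched members, so a member without a match may still hold one. A CCAAT box stood in 21 of 23 members (91.3%), against 41.1% of all genes and 42.7% of the 9808 matched genes that averaged 1 FPKM or more. Acat2 and Scap were the matched members without one. These shares describe letters in a window.

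The libraries were alike in depth, at an estimated 15.12 to 18.31 M fragments, and 12640 to 12967 genes reached 1 FPKM in each. The region labels held against markers chosen after other results were known: 5 genes of hippocampal fields summed to 95.11 to 124.6 FPKM in hippocampal libraries and to 5.783 to 7.974 FPKM in prefrontal libraries, and 5 genes of cortical layers to 37.09 to 50.46 FPKM in hippocampal libraries and to 79.46 to 109.2 FPKM in prefrontal libraries. Of the cortical layer genes, Fezf2 alone went the other way. It averaged 16.53 FPKM in irradiated hippocampus, against 15.66 FPKM in irradiated prefrontal cortex. In control mice it averaged 14.55 FPKM in hippocampus, against 11.15 FPKM in prefrontal cortex. Other tissue also differed between the regions. Summed over 8 striatal genes, hippocampal libraries held 61.71 to 103.5 FPKM and prefrontal libraries 588.0 to 782.6 FPKM. Summed over 10 choroid plexus genes, 5 hippocampal libraries held 3742 to 6664 FPKM, while irradiated hippocampus 2 held 126.7 FPKM and prefrontal libraries 63.27 to 138.7 FPKM.

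Among the members, the highest levels belonged to Cyp46a1 in prefrontal cortex and Hmgcs1 in hippocampus, and the lowest group mean to Stard4 in control hippocampus. Cyp46a1, the neuronal cholesterol 24-hydroxylase, averaged 107 ± 6.49 FPKM in irradiated and 103 ± 8.04 FPKM in control prefrontal cortex, and 61.1 ± 5.499 FPKM in irradiated and 57.6 ± 1.28 FPKM in control hippocampus (SD, n = 3 each). Hmgcs1, the cytosolic synthase that makes HMG-CoA, averaged 88.9 ± 7.70 and 94.4 ± 17.0 FPKM in irradiated and control prefrontal cortex, and 70.4 ± 6.56 and 81.7 ± 17.48 FPKM in irradiated and control hippocampus. At the other end, Stard4, a cytosolic sterol carrier, averaged 7.997 ± 0.864 and 6.85 ± 1.02 FPKM in irradiated and control prefrontal cortex, and 4.74 ± 0.743 and 4.21 ± 0.758 FPKM in irradiated and control hippocampus. Lss, lanosterol synthase, averaged between 5.33 ± 0.265 FPKM in control hippocampus, against 6.31 ± 0.257 FPKM in control prefrontal cortex. Within the pathway, Fdps (farnesyl pyrophosphate synthase) and Msmo1 (sterol C4-methyl oxidase) stood near Srebf2 at 44.5 to 62.2 FPKM by group mean, while Tm7sf2, Hsd17b7 and Ebp stayed between 5.29 and 8.18 FPKM.

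**Figure D1:**
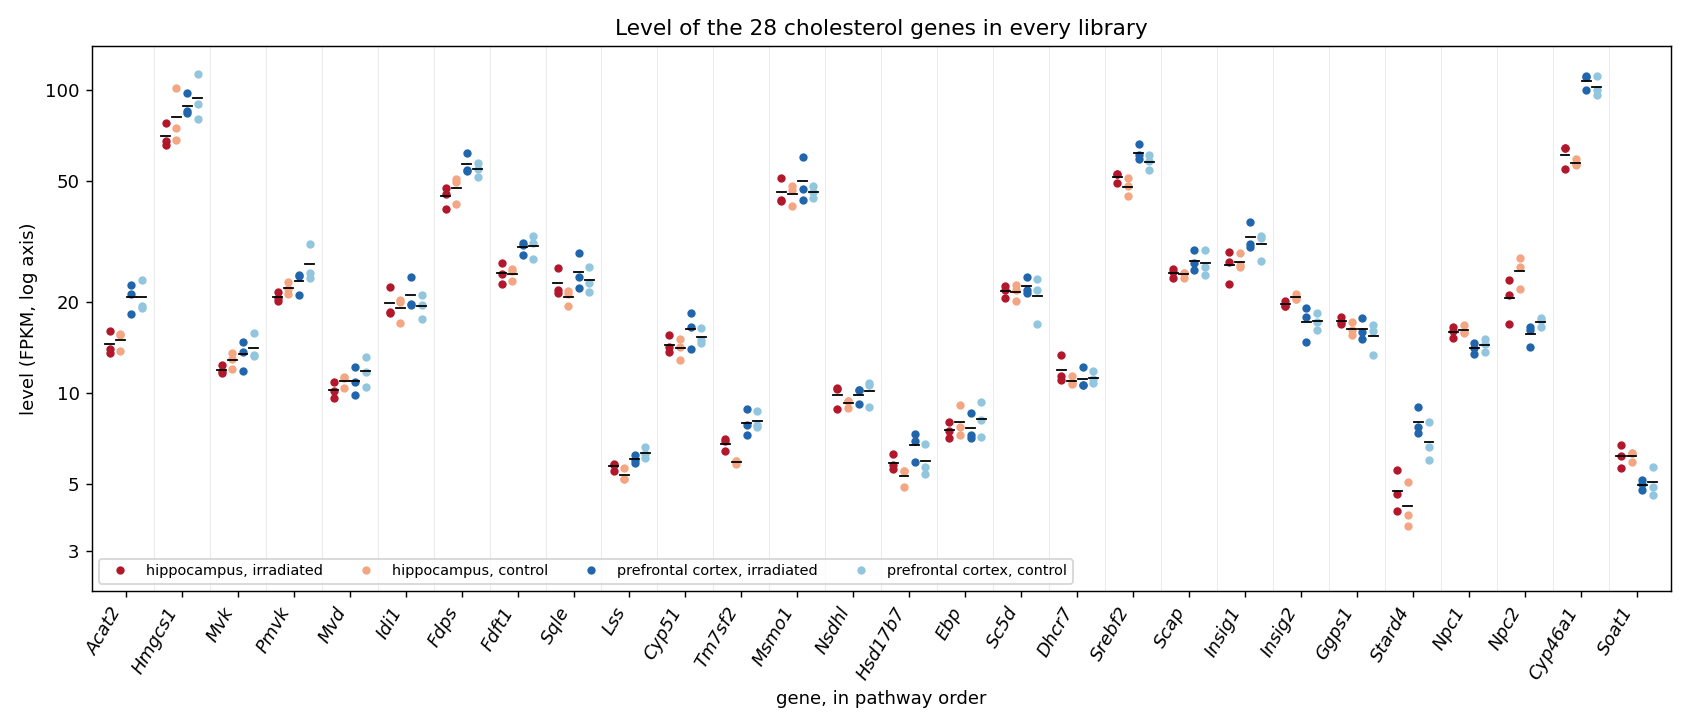
Level of each of the 28 members in every library, in FPKM on a log axis, with genes in pathway order; points are single libraries in the 4 groups of 3 mice and short lines are group means. Cyp46a1, Acat2 and Stard4 lie lower in hippocampus than in prefrontal cortex, Npc2 lies higher, and irradiated and control points of a region mix for most genes.

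The regions differed far more than the treatments. Most members were lower in hippocampus than in prefrontal cortex, in irradiated and in control mice alike, and the members higher in hippocampus in both were the late-endosomal carriers Npc1 and Npc2, Insig2, the esterifying enzyme Soat1 and Ggps1. Dhcr7 was positive in irradiated mice and Sc5d in control mice. Among irradiated mice 7 of 28 members were lower in hippocampus and 2 higher past an adjusted p of 0.05 (limma on log2(FPKM + 1)), against 29.2% of 12878 genes, of which 13.9% were higher and 15.3% lower. Among control mice 6 were lower and 2 higher, against 30.3% of 12923 genes, of which 15.7% were higher and 14.6% lower. At an unadjusted p under 0.05 there were 12 members in either treatment, against 39.7% of genes in irradiated and 40.5% in control mice. The share of members called was near that of all genes, and the members' lean was in direction: 22 of 28 differences were negative in either treatment, with medians of -0.12 in irradiated and -0.13 in control mice, where the medians over all genes were 0.00011 and 0.0051. Called in both treatments, which share no library, were 6 members: Acat2, Fdft1, Srebf2, Stard4, Cyp46a1 and Npc2. The share of all genes called in both was not counted, so this number does not set the members apart. All log2 differences are on the log2(FPKM + 1) scale, which understates the change of low genes. In bulk tissue, fewer cells of a type and less RNA per cell cannot be told apart.

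**Figure D2:**
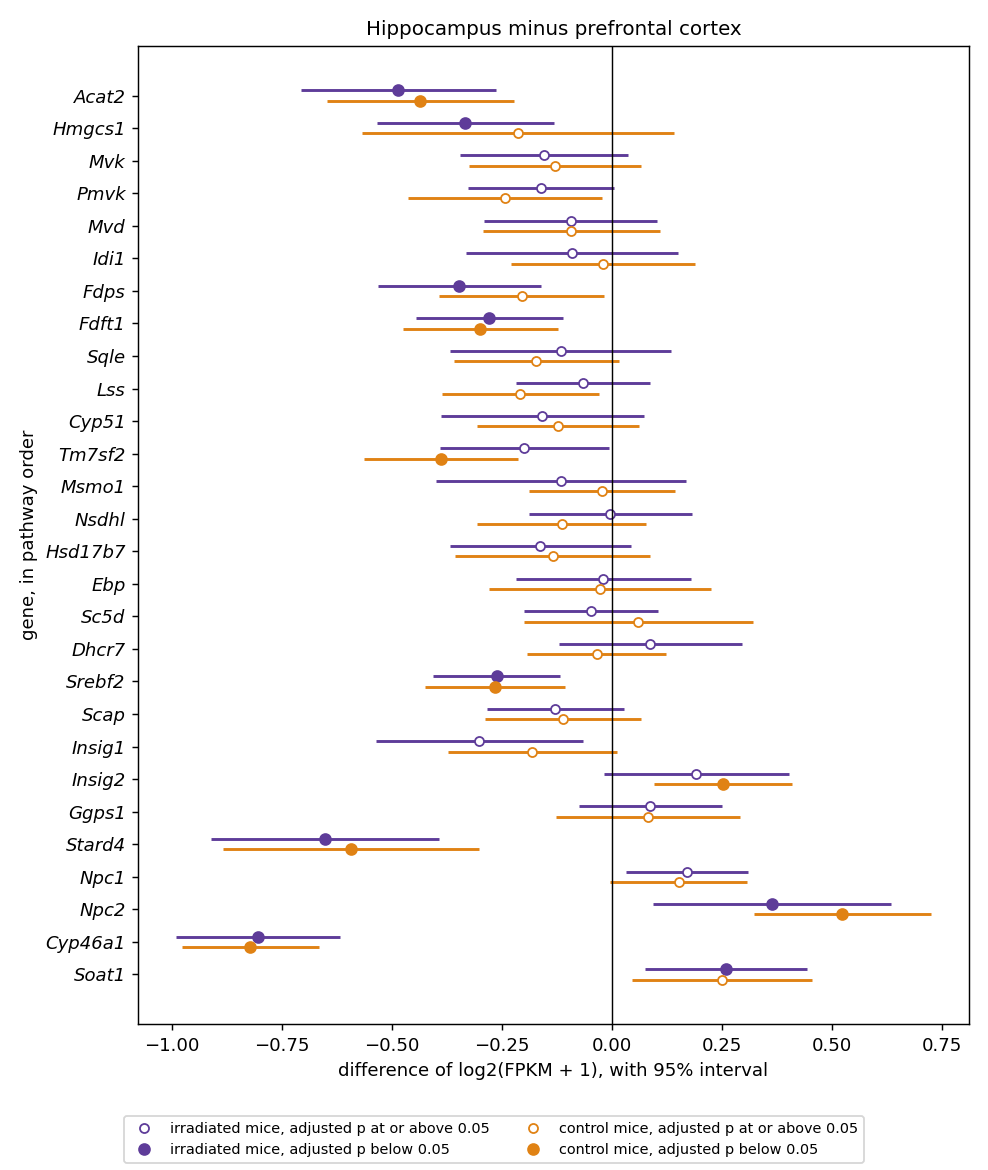
Difference of log2(FPKM + 1), hippocampus minus prefrontal cortex, for each member with its 95% interval, in irradiated mice (purple) and control mice (orange), 3 mice each; filled points passed an adjusted p of 0.05. Cyp46a1 stands farthest left at -0.80 and -0.82, Npc2 farthest right at 0.36 and 0.52, and most synthesis enzymes lie left of 0.

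The early steps of the mevalonate pathway hold Acat2, Hmgcs1, Mvk, Pmvk, Mvd and Idi1, and all 6 had negative differences in both treatments. Acat2 makes acetoacetyl-CoA, the starting unit. It had 16.0, 13.9 and 13.5 FPKM in irradiated hippocampus, against 22.7, 18.2 and 21.2 FPKM in irradiated prefrontal cortex, and 15.6, 15.5 and 13.8 FPKM in control hippocampus, against 23.5, 19.1 and 19.3 FPKM in control prefrontal cortex. Every hippocampal value lay below every prefrontal value. The difference was -0.49 ± 0.10 (SE; adjusted p = 0.0069) in irradiated and -0.44 ± 0.09 (adjusted p = 0.0071) in control mice. Acat3, a near-identical copy, averaged 12.4 and 11.8 FPKM in irradiated hippocampus and prefrontal cortex and 13.8 and 13.5 FPKM in the control ones, and since reads can be split between the copies the level of Acat2 is uncertain.

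Hmgcs1, whose promoter held the match to the sterol response element, had 77.9, 67.7 and 65.6 FPKM in irradiated hippocampus, against 97.7, 83.7 and 85.2 FPKM in irradiated prefrontal cortex. These groups did not overlap, and the difference of -0.33 ± 0.09 passed (adjusted p = 0.0235), though not without irradiated hippocampus 2 or 3 or irradiated prefrontal cortex 1 (adjusted p up to 0.0777), and not in 1 fit over all 12 libraries (adjusted p = 0.101). In control mice it had 68.6, 74.9 and 102 FPKM in hippocampus, against 80.0, 90.2 and 113 FPKM in prefrontal cortex. The control groups overlapped and control mouse 3 was high in both regions. The difference was -0.21 ± 0.16 (adjusted p = 0.354), or -0.21 ± 0.06 (adjusted p = 0.0239) with the mouse as a block. An antisense gene, Gm48342, overlaps Hmgcs1, and the use of strand in counting is not stated.

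The next steps are a pair of kinases, a decarboxylase and an isomerase. Pmvk, phosphomevalonate kinase, differed by -0.16 ± 0.07 (adjusted p = 0.138) in irradiated and by -0.24 ± 0.10 (adjusted p = 0.0918) in control mice, and the control value passed with the mouse as a block (adjusted p = 0.0325). Mvk, mevalonate kinase, differed by -0.15 ± 0.08 and -0.13 ± 0.09 in irradiated and control mice, and Mvd, which makes isopentenyl pyrophosphate, by -0.09 ± 0.09 in either. Idi1, which isomerises isopentenyl pyrophosphate, lay between -0.09 ± 0.10 and -0.02 ± 0.09. None of these differences passed without the block.

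The farnesyl and squalene steps were the part of the pathway with the lowest median, -0.20 in irradiated and -0.21 in control mice, and all 4 members were negative. Fdft1, squalene synthase, commits farnesyl units to sterols. It had 26.9, 24.6 and 22.8 FPKM in irradiated hippocampus, against 30.8, 31.3 and 28.5 FPKM in irradiated prefrontal cortex, and 25.6, 25.1 and 23.3 FPKM in control hippocampus, against 31.2, 32.9 and 27.7 FPKM in control prefrontal cortex. The groups did not overlap in either treatment, and the difference was -0.28 ± 0.07 (adjusted p = 0.0234) in irradiated and -0.30 ± 0.08 (adjusted p = 0.0180) in control mice. The call in irradiated mice was lost without hippocampus 2 or 3 or prefrontal cortex 1 or 2 (adjusted p up to 0.0761), and in control mice without hippocampus 2 or 3 or prefrontal cortex 2 (adjusted p up to 0.0697). Fdft1 shares 774 bases with Ctsb on the opposite strand.

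Fdps had 47.5, 40.6 and 45.5 FPKM in irradiated hippocampus, against 62.0, 54.1 and 54.5 FPKM in irradiated prefrontal cortex, and 50.7, 49.7 and 41.9 FPKM in control hippocampus, against 57.5, 54.8 and 51.7 FPKM in control prefrontal cortex. Neither pair of groups overlapped. The difference of -0.35 ± 0.08 passed in irradiated mice (adjusted p = 0.0140), and that of -0.20 ± 0.08 in control mice passed with the mouse as a block (adjusted p = 0.0354) and not without it (adjusted p = 0.0958). A gene on the same strand, Gm43738, covers 7512 bases of Fdps, so their fragments could be shared. Sqle, squalene epoxidase, a rate-limiting step, differed by -0.12 ± 0.11 in irradiated and -0.17 ± 0.08 in control mice, and Lss by -0.07 ± 0.07 and -0.21 ± 0.08, and none of these passed (adjusted p of 0.0765 or more).

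The 8 enzymes after lanosterol had medians nearer 0 than the earlier steps, -0.08 in irradiated and -0.07 in control mice, and ranged from -0.20 to 0.09 and from -0.39 to 0.06. Of them, 0 passed in irradiated and 1 in control mice. Tm7sf2, a sterol C14-reductase, had 6.91, 7.02 and 6.41 FPKM in irradiated hippocampus, against 7.78, 8.84 and 7.23 FPKM in irradiated prefrontal cortex. In control mice it had 5.95, 5.95 and 5.83 FPKM in hippocampus, against 7.81, 8.66 and 7.68 FPKM in prefrontal cortex. The groups were apart in both treatments. The difference was -0.39 ± 0.08 in control mice (adjusted p = 0.0048) and -0.20 ± 0.08 in irradiated mice, which did not pass (adjusted p = 0.116), and the test of the difference between these values gave 0.19 ± 0.11 (adjusted p = 0.9998). Tm7sf2 shares 532 bases with Vps51 on the same strand. Cyp51 (lanosterol 14-alpha-demethylase), Hsd17b7 (a sterol 3-ketoreductase) and Msmo1 ranged from -0.16 to -0.02 over both treatments. Nsdhl (a C4-decarboxylating dehydrogenase), Ebp (the sterol isomerase), Sc5d (the C5-desaturase) and Dhcr7 (which makes cholesterol from 7-dehydrocholesterol) ranged from -0.11 to 0.09, and Sc5d and Dhcr7 changed sign between the treatments.

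Sterol sensing split. Srebf2, which encodes SREBP2, had 52.8, 52.8 and 49.4 FPKM in irradiated hippocampus, against 60.9, 66.4 and 59.3 FPKM in irradiated prefrontal cortex, and 44.8, 51.0 and 48.1 FPKM in control hippocampus, against 58.3, 60.9 and 54.6 FPKM in control prefrontal cortex. It was lower in every hippocampal library, by -0.26 ± 0.06 (adjusted p = 0.0163) in irradiated and -0.27 ± 0.07 (adjusted p = 0.0192) in control mice. Without irradiated hippocampus 3 (adjusted p = 0.0607), or without control hippocampus 1 or control prefrontal cortex 2 (adjusted p up to 0.0763), it did not pass. Srebf2 shares 2110 bases with Gm49502 on the same strand, so their fragments could be shared.

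The 2 INSIG genes, whose proteins retain SCAP in the endoplasmic reticulum, pointed in opposite directions. Insig2 had 19.4, 19.4 and 20.1 FPKM in irradiated hippocampus, against 17.7, 14.6 and 19.0 FPKM in irradiated prefrontal cortex, and 20.5, 20.4 and 21.2 FPKM in control hippocampus, against 16.2, 17.1 and 18.4 FPKM in control prefrontal cortex. Hippocampus was the higher region in every library pair. Insig2 shares 3058 bases with Gm37174 on the opposite strand. The difference was 0.25 ± 0.07 (adjusted p = 0.0224) in control mice, a call lost without any single hippocampal library or control prefrontal cortex 2 (adjusted p up to 0.0680), and 0.19 ± 0.09 in irradiated mice (adjusted p = 0.158). Insig1, itself a classical SREBP2 target, had 29.1, 27.1 and 22.9 FPKM in irradiated hippocampus, against 36.5, 31.1 and 30.4 FPKM in irradiated prefrontal cortex, groups that did not overlap. Its difference was -0.30 ± 0.10 (adjusted p = 0.0606, or 0.0067 with the mouse as a block) in irradiated and -0.18 ± 0.09 (adjusted p = 0.146) in control mice. Scap differed by -0.13 ± 0.07 and -0.11 ± 0.08, and Ggps1, the geranylgeranyl pyrophosphate synthase, by 0.09 ± 0.07 and 0.08 ± 0.09, in irradiated and control mice, with no call.

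The carriers also split. Stard4 had 5.54, 4.61 and 4.07 FPKM in irradiated hippocampus, against 8.97, 7.33 and 7.68 FPKM in irradiated prefrontal cortex, and 3.93, 5.07 and 3.63 FPKM in control hippocampus, against 5.98, 7.98 and 6.6 FPKM in control prefrontal cortex. The groups were well apart, and the difference of -0.65 ± 0.11 (adjusted p = 0.0037) in irradiated and -0.59 ± 0.13 (adjusted p = 0.0072) in control mice passed without any single library. Npc2, the soluble protein that takes cholesterol out of lysosomes together with NPC1, went the other way. It had 21.0, 16.9 and 23.6 FPKM in irradiated hippocampus, against 16.1, 14.2 and 16.5 FPKM in irradiated prefrontal cortex, and 27.8, 25.9 and 22.0 FPKM in control hippocampus, against 17.4, 16.4 and 17.6 FPKM in control prefrontal cortex. Hippocampus was higher without overlap, by 0.36 ± 0.12 (adjusted p = 0.0499) in irradiated and 0.52 ± 0.09 (adjusted p = 0.0019) in control mice. The call in irradiated mice held without irradiated hippocampus 2 (adjusted p = 0.0058) and was lost without any other single library (adjusted p up to 0.138) or without the filter (adjusted p = 0.0827).

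Over the 6 hippocampal libraries, the order of Npc2 was that of the choroid plexus sum. This sum was 126.7 FPKM in irradiated hippocampus 2, 3742 FPKM in irradiated 1, 4284 FPKM in control 3 and 5385 FPKM in irradiated 3. It was 5407 FPKM in control 2 and 6664 FPKM in control 1. The order was not particular to choroid plexus. It was also that of the sum of 10 ribosomal protein genes (2883 to 4202 FPKM) and of the library totals (387367 to 435534 FPKM). The part of choroid plexus, or of a gradient between libraries, in the Npc2 difference was not tested. By mouse, the Npc2 difference between the regions ran from 0.24 in irradiated mouse 2 to 0.64 in control mouse 1. Npc1, the membrane partner, averaged 15.9 ± 0.636 FPKM in irradiated hippocampus, against 14.0 ± 0.547 FPKM in irradiated prefrontal cortex, and 16.1 ± 0.563 FPKM in control hippocampus, against 14.4 ± 0.717 FPKM in control prefrontal cortex. Its groups did not overlap, yet the differences of 0.17 ± 0.06 (adjusted p = 0.0676) and 0.15 ± 0.07 (adjusted p = 0.130) did not pass.

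Cyp46a1 showed the largest difference of all members. It had 64.2, 64.3 and 54.7 FPKM in irradiated hippocampus, against 111, 111 and 99.8 FPKM in irradiated prefrontal cortex, and 57.0, 59.0 and 56.7 FPKM in control hippocampus, against 112, 96.0 and 100.4 FPKM in control prefrontal cortex. The highest hippocampal value was far below the lowest prefrontal value. The difference was -0.80 ± 0.08 (adjusted p = 0.00026) in irradiated and -0.82 ± 0.07 (adjusted p = 2.6e-05) in control mice, and it passed without any single library. Soat1, which esterifies cholesterol for storage, had 5.61, 6.17 and 6.69 FPKM in irradiated hippocampus, against 5.001, 4.75 and 5.14 FPKM in irradiated prefrontal cortex, and 5.89, 6.30 and 6.33 FPKM in control hippocampus, against 4.59, 5.66 and 4.88 FPKM in control prefrontal cortex. It was higher in hippocampus by 0.26 ± 0.08 (adjusted p = 0.0422) in irradiated mice, a call lost without irradiated hippocampus 2 or 3 or any single prefrontal library (adjusted p up to 0.132), without the filter (0.0723) or with equal totals (0.0583), and by 0.25 ± 0.09 (adjusted p = 0.0649) in control mice. Soat1 shares 2563 bases with Gm37648 on the opposite strand.

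**Figure D3:**
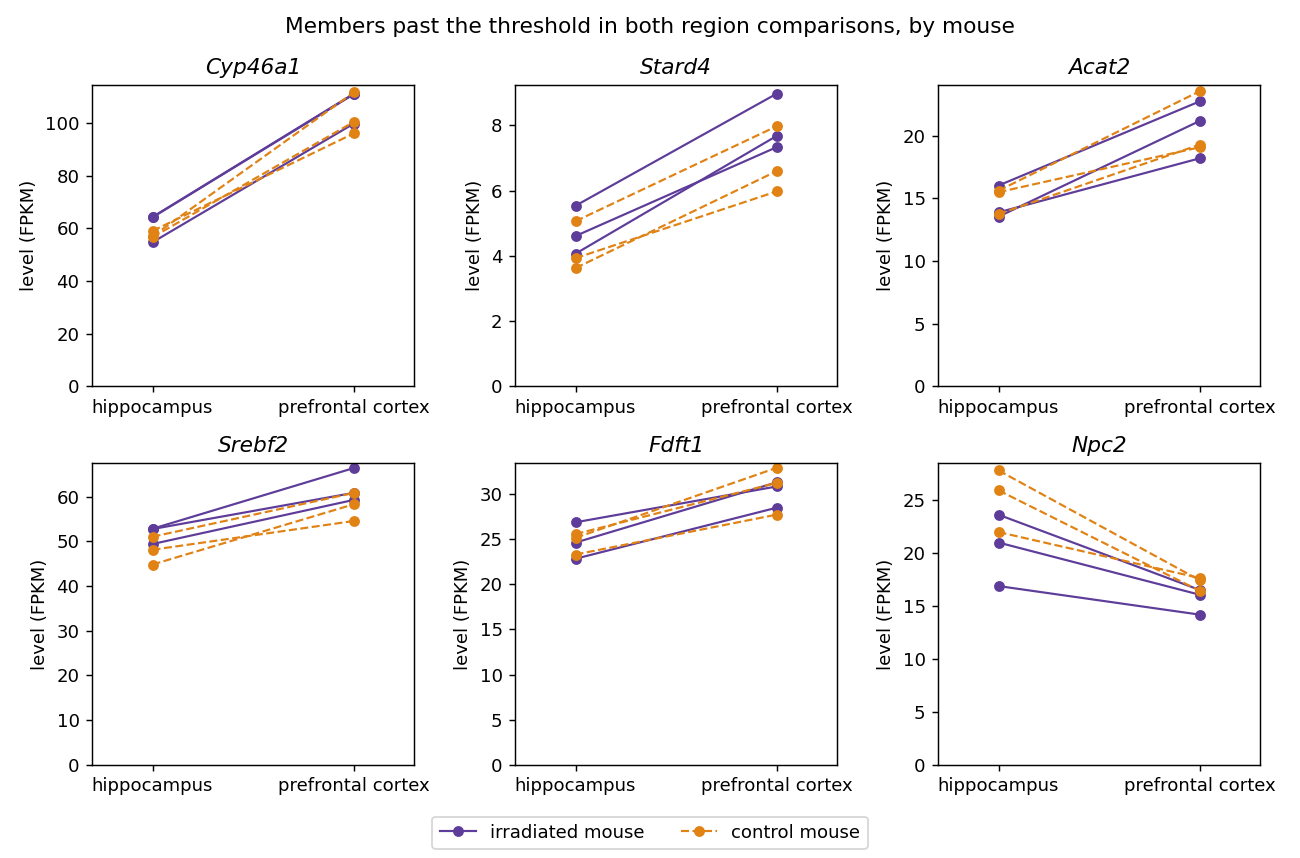
Level in FPKM of the 6 members called in both treatments, in hippocampus and prefrontal cortex, with a line for each mouse (solid for irradiated, dashed for control). All 6 lines fall toward hippocampus for Cyp46a1, Stard4, Acat2, Srebf2 and Fdft1, and all 6 rise toward it for Npc2.

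Each mouse gave both regions, so the direction can be counted by mouse. With the mouse as a block within a treatment, 2 members were higher and 8 lower in irradiated mice, against 35.9% of genes called, and 2 higher and 9 lower in control mice, against 33.5%. Of the 28 members, 16 were lower in hippocampus in 6 of 6 mice, against 23.1% of 12894 genes, and 4 (Insig2, Npc1, Npc2 and Soat1) were higher in 6 of 6, against 22.5%. Either direction was shared by 6 mice in 45.6% of genes. The 16 comprised 12 synthesis enzymes, from Acat2 through Mvd, Fdps through Tm7sf2 and Hsd17b7, together with Srebf2, Insig1, Stard4 and Cyp46a1. Idi1, Msmo1 and Scap were lower in 5 mice. The per-mouse difference of Stard4 ran from -0.78 to -0.50 and that of Cyp46a1 from -0.96 to -0.69. A fit of all 6 mice with the mouse as a block, added after the data were seen, called 16 members lower and 4 higher, against 51.1% of 12894 genes, of which 25.2% were lower and 25.9% higher. Beyond the members already called it took in Mvk (-0.14 ± 0.04, adjusted p = 0.0195), Sqle (-0.14 ± 0.04, adjusted p = 0.0136), Lss (-0.14 ± 0.05, adjusted p = 0.0352), Cyp51 (-0.14 ± 0.04, adjusted p = 0.0166), Hsd17b7 (-0.15 ± 0.05, adjusted p = 0.0339), Scap (-0.12 ± 0.04, adjusted p = 0.0411), and Npc1 (0.16 ± 0.04, adjusted p = 0.0074). Pmvk and Insig1 were called in it as well. Mvd, Idi1, Msmo1, Nsdhl, Ebp, Sc5d, Dhcr7 and Ggps1 did not pass there.

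Groups without overlap gave a similar picture. Among irradiated mice 10 members were lower and 4 higher in every hippocampal than in every prefrontal library, against 44.8% of all genes (23.4% lower and 21.4% higher). Among control mice 9 were lower and 4 higher, against 45.7% of all genes (22.0% lower and 23.7% higher). Of the 18 synthesis enzymes, 4 were called lower in irradiated mice, against 15.3% of all genes, and 3 in control mice, against 14.6%. None was called higher, against 13.9% of all genes in irradiated and 15.7% in control mice. In each treatment 17 of 18 differences were negative. Summed over the 18 enzymes, levels were 398.3, 353.6 and 355.4 FPKM in irradiated hippocampus, against 471.9, 402.2 and 411.3 FPKM in irradiated prefrontal cortex, and 377.4, 381.9 and 380.5 FPKM in control hippocampus, against 423.9, 431.8 and 426.9 FPKM in control prefrontal cortex. Both pairs of sums were apart.

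Genes of related pathways that are no members were counted from lists. Over all genes, 13.9% were called higher and 15.3% lower in hippocampus among irradiated mice. Among control mice it was 15.7% higher and 14.6% lower. List counts near these shares do not set a list apart. Srebf1, the related factor of fatty acid synthesis, was higher in hippocampus, by 0.30 ± 0.07 (adjusted p = 0.0156) in irradiated and 0.37 ± 0.09 (adjusted p = 0.0108) in control mice. It comes from a list of further genes of synthesis and its control, where more calls went the other way. Of 12 genes tested there in irradiated mice, 1 was higher and 2 lower. In control mice, of 13 tested, 2 were higher and 4 lower. Of 15 genes that export or receive lipoprotein cholesterol, 4 were called higher and 0 lower in hippocampus among irradiated mice, and 5 higher and 0 lower among control mice. By sign, 9 were positive and 6 negative in either treatment, with medians of 0.03 and 0.06. Lcat, which esterifies cholesterol on lipoproteins, was higher by 0.69 ± 0.08 (adjusted p = 0.0004) and 0.63 ± 0.10 (adjusted p = 0.0014), and Apoe, the main lipoprotein of astrocytes, by 0.54 ± 0.13 (adjusted p = 0.0146) and 0.37 ± 0.09 (adjusted p = 0.0134), in irradiated and control mice. Of 12 further sterol carriers and lysosomal genes tested, 4 were higher in each treatment (Cd63, Lamp2, Stard5 and Lipa), while 2 were lower in irradiated mice (Osbpl1a and Stard3) and 1 in control mice (Osbpl1a). Osbpl1a, an oxysterol-binding carrier, had the largest fall of these, -1.13 ± 0.07 (adjusted p = 3.0e-05) and -1.14 ± 0.07 (adjusted p = 3.3e-06). Cyp7b1, the oxysterol 7-alpha-hydroxylase, was higher by 0.70 ± 0.11 (adjusted p = 0.0023) and 0.73 ± 0.07 (adjusted p = 8.0e-05). Cyp7b1 stands in a list named for oxysterol and bile acid enzymes, which also holds other hydrolases, Ephx2 and Nceh1. Of 5 genes of this list tested, 2 were higher and 1 lower in irradiated and 2 higher and 0 lower in control mice. The lower one was Nceh1. Of 14 fatty acid synthesis genes, 3 were higher and 1 lower in irradiated mice and 4 higher and 1 lower in control mice, and of 12 genes that use isoprenoids for prenylation and the like, 4 and 2 were lower and none higher.

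Cell type markers also differed between the regions. The shares of all genes called were 13.9% higher and 15.3% lower in irradiated mice, and 15.7% higher and 14.6% lower in control mice. Myelin genes, of a cell type that makes much cholesterol, were higher in hippocampus, 14 of 16 in irradiated and 13 of 16 in control mice, with sums of 2409 to 2552 FPKM in irradiated and 2605 to 3173 FPKM in control hippocampus, and 1676 to 1848 FPKM in irradiated and 1922 to 2114 FPKM in control prefrontal cortex. Of 12 neuronal genes, 5 were lower and 0 higher in irradiated mice and 6 lower and 1 higher in control mice, with sums of 3989 to 4342 FPKM in hippocampus and 4509 to 5007 FPKM in prefrontal cortex. Of 12 astrocyte genes, 8 were higher in irradiated and 5 in control mice and none lower, with sums of 1641 to 1798 FPKM in hippocampus and 1213 to 1402 FPKM in prefrontal cortex. No marker of these 3 lists was at 0 in any library. The part of cell type content and of striatal tissue in the members' region differences was not tested.

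Irradiation was compared within each region, which asks whether abdominal exposure was followed by a change of these genes in the brain. In hippocampus 0 of 28 members passed, as did 0.0% of 12947 genes. At an unadjusted p under 0.05 there were 2 members, against 10.5% of all genes. In prefrontal cortex 0 of 28 members passed, against 0.00786% of 12729 genes (1 gene), and 0 members reached an unadjusted p under 0.05, against 7.23% of all genes. The median difference, irradiated minus control, was 0.01 in hippocampus, with 16 of 28 positive, and -0.0039 in prefrontal cortex, with 14 of 28 positive, where the medians over all genes were -0.0093 and 0.0035. Member differences lay between -0.29 and 0.17 in hippocampus and between -0.17 and 0.20 in prefrontal cortex. The 95% intervals reached from -0.59 to 0.45 over all members in hippocampus and from -0.41 to 0.45 in prefrontal cortex, and each member's own interval bounds the change these 3 mice a group could miss. No marker gene passed either, but some marker sums were apart by treatment. The sum of 16 myelin genes was 2409 to 2552 FPKM in irradiated and 2605 to 3173 FPKM in control hippocampus, with 15 of 16 differences negative. In prefrontal cortex it was 1676 to 1848 FPKM in irradiated and 1922 to 2114 FPKM in control mice, with 13 of 16 negative. The sum of 8 endothelial genes was 77.92 to 84.85 FPKM in irradiated and 42.23 to 59.78 FPKM in control hippocampus, and 88.14 to 96.96 FPKM in irradiated and 73.43 to 81.79 FPKM in control prefrontal cortex, with 8 of 8 positive in each region. The sum of 8 microglial genes was 196.6 to 215.7 FPKM in irradiated and 218.9 to 227.8 FPKM in control hippocampus. The sum of 5 cortical layer genes was also apart, higher in irradiated mice in both regions, and that of 10 ribosomal protein genes was 2438 to 3292 FPKM in irradiated and 3373 to 3653 FPKM in control prefrontal cortex. The part of these differences in the members' values was not tested.

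In hippocampus the smallest p-values belonged to Tm7sf2, Npc2, Srebf2 and Sqle. Tm7sf2 had 6.91, 7.02 and 6.41 FPKM in irradiated and 5.95, 5.95 and 5.83 FPKM in control hippocampus. The groups did not overlap, and the difference was 0.17 ± 0.07 (95% interval 0.02 to 0.32, adjusted p = 0.475). Npc2, whose values in hippocampus stand above, overlapped between the treatments, and its difference was -0.29 ± 0.13 (adjusted p = 0.475), or -0.17 ± 0.10 without irradiated hippocampus 2, the library low in choroid plexus transcripts. Srebf2 differed by 0.11 ± 0.06 (adjusted p = 0.537). Sqle had 25.8, 21.3 and 21.9 FPKM in irradiated and 21.1, 21.7 and 19.4 FPKM in control hippocampus, overlapping groups with a difference of 0.14 ± 0.08 (adjusted p = 0.541). Besides Tm7sf2, Hsd17b7 was higher in every irradiated than in every control library (0.13 ± 0.08, adjusted p = 0.555), and Insig2 was lower in every one (-0.07 ± 0.05, adjusted p = 0.577). Such groups without overlap were 2 higher and 1 lower among 28 members, against 15.6% of all genes (7.41% higher and 8.16% lower).

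In prefrontal cortex the smallest p-values belonged to Stard4, Npc2, Pmvk and Hsd17b7. Stard4 had 8.97, 7.33 and 7.68 FPKM in irradiated and 5.98, 7.98 and 6.6 FPKM in control prefrontal cortex, overlapping groups with a difference of 0.20 ± 0.11 (95% interval -0.05 to 0.45, adjusted p = 0.776). Pmvk had 24.4, 21.1 and 24.5 FPKM in irradiated and 30.9, 24.8 and 23.9 FPKM in control prefrontal cortex, overlapping groups with control 1 the highest library, and a difference of -0.17 ± 0.11 (adjusted p = 0.792). Npc2 differed by -0.13 ± 0.08 (adjusted p = 0.779) and Hsd17b7 by 0.15 ± 0.11 (adjusted p = 0.813). No member had groups without overlap in prefrontal cortex, against 13.7% of all genes (6.25% higher and 7.44% lower). Cyp46a1, so different between the regions, differed by 0.08 ± 0.07 in hippocampus and 0.06 ± 0.08 in prefrontal cortex between the treatments.

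**Figure D4:**
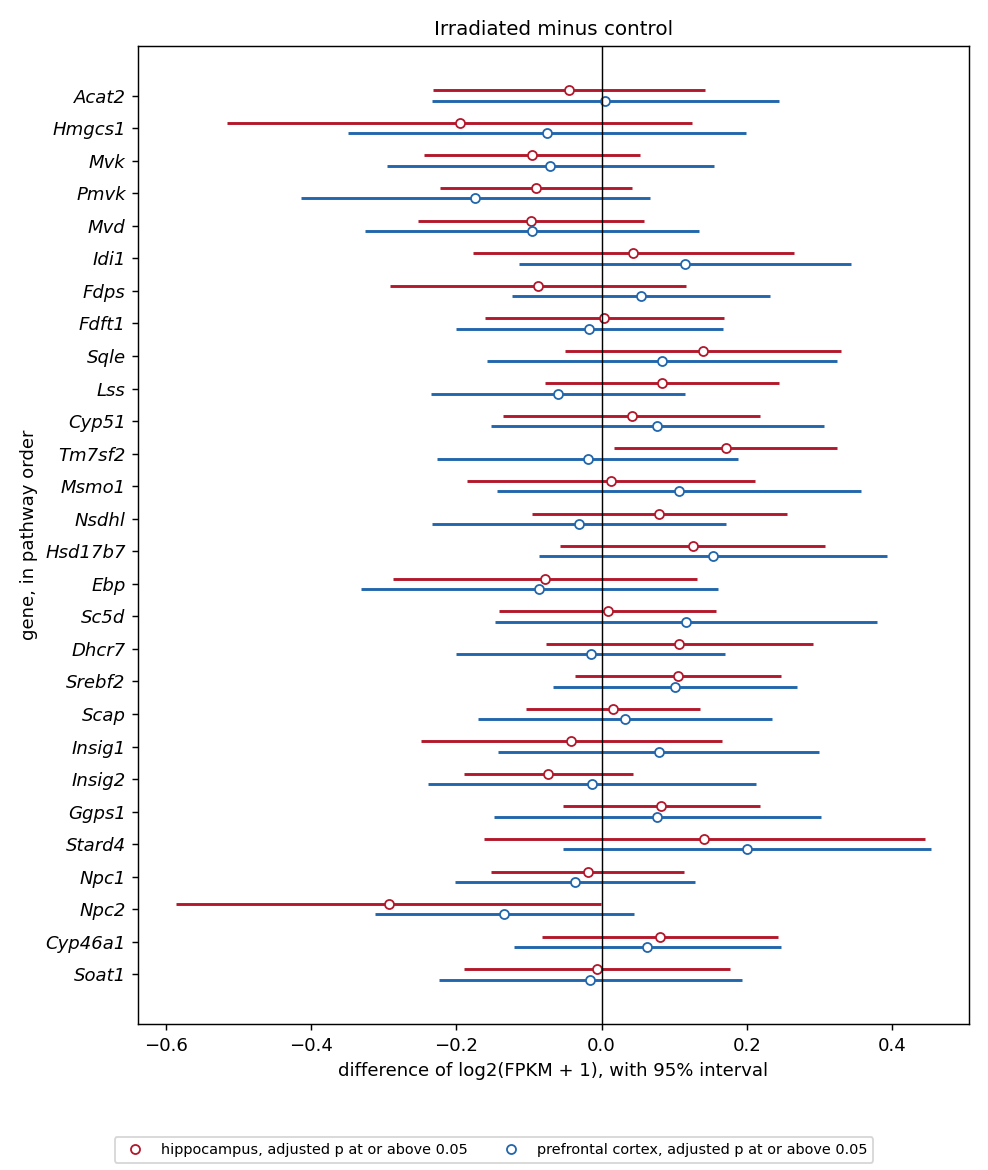
Difference of log2(FPKM + 1), irradiated minus control, for each member with its 95% interval, in hippocampus (red) and prefrontal cortex (blue), 3 mice per group; open points did not pass an adjusted p of 0.05. All points are open, and all but those of Tm7sf2 and Npc2 in hippocampus have intervals that include 0.

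Scaling moved the direction of these small differences. With values rescaled to equal library totals, the median over all genes shifted to 0.07 in each region, and the members' medians to 0.10 in hippocampus, with 21 of 28 positive, and 0.07 in prefrontal cortex, with 24 of 28 positive, and 0 members passed in either. In none of the lists of related genes counted here did a gene pass in either region. The difference between the irradiation effects of the regions, which is also the difference between the region effects of irradiated and control mice, was tested over all 12 libraries. It called 0 of 28 members, as did 0.0% of 12894 genes, and at an unadjusted p under 0.05 there were 0 members, against 3.27% of genes. The 4 smallest p-values belonged to Tm7sf2 (0.19 ± 0.11), Lss (0.14 ± 0.09), Fdps (-0.14 ± 0.12) and Dhcr7 (0.12 ± 0.11), all with an adjusted p of 0.9998. That some members passed between the regions in irradiated mice alone (Fdps, Hmgcs1 and Soat1), or in control mice alone (Tm7sf2 and Insig2), is therefore no difference that these tests detected.

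The synthesis enzymes varied together from mouse to mouse. Among irradiated mice, mouse 1 had the highest level for 14 of the 18 enzymes in hippocampus and for 14 of 18 in prefrontal cortex, where 24.0% and 30.3% of all genes were highest. Among control mice, mouse 3 had the lowest level for 14 of 18 in hippocampus and 12 of 18 in prefrontal cortex, where 34.7% and 29.2% of all genes were lowest. Msmo1 had 51.3, 43.0 and 43.4 FPKM in irradiated hippocampus and 60.02, 43.5 and 47.0 FPKM in irradiated prefrontal cortex, so that mouse 1 stood above its group in both regions. Idi1 had 22.3, 18.3 and 18.5 FPKM in irradiated hippocampus and 24.1, 19.5 and 19.6 FPKM in irradiated prefrontal cortex, with the same mouse high. Hmgcs1 ran the other way in control mice: the control mouse that was low for most enzymes had the highest Hmgcs1 of all libraries of each region, at 102 FPKM in hippocampus, against 113 FPKM in prefrontal cortex.

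**Figure D5:**
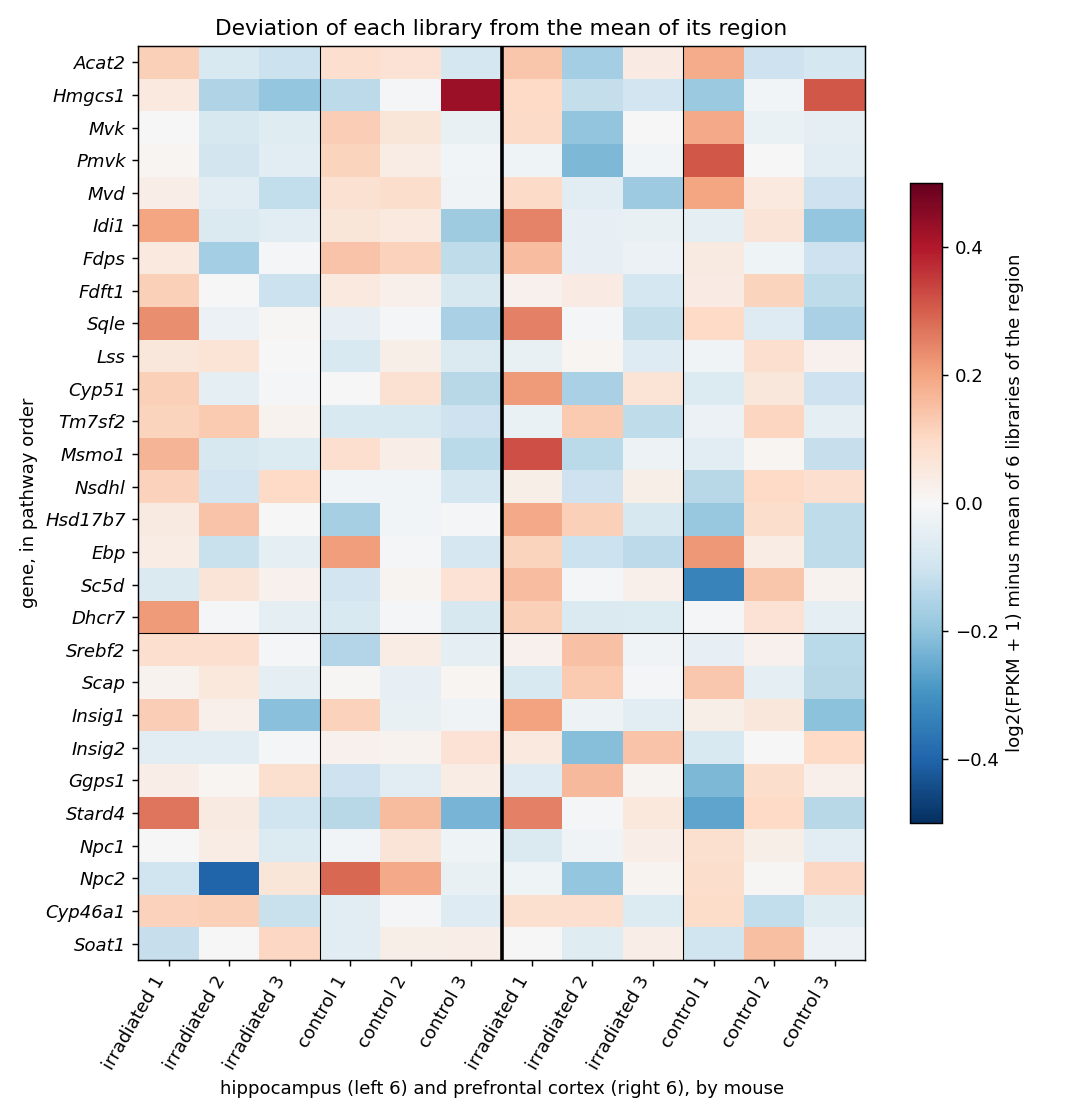
Deviation of each library from the mean of its region's 6 libraries, as a difference of log2(FPKM + 1), for the 28 members in pathway order; the thick line parts hippocampus from prefrontal cortex and thin vertical lines part irradiated from control mice. Irradiated mouse 1 is red for most enzymes in both regions. In hippocampus the largest deviations are Hmgcs1 in control mouse 3, which is high, and Npc2 in irradiated mouse 2, which is low.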

How the data were processed

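RNA of 12 libraries was analysed, 1 per region and mouse, in 4 groups of 3 taken from the titles. Trizol extraction and strand-marking NEBNext Ultra II libraries are given per the labels' protocols, and all libraries carry 1 batch label. The submitters' processing notes name TopHat and mm10. No source names the counting tool, annotation or strand setting. Each replicate is a separate mouse per the titles. The deposited tables give 1 value per gene and name no unit. The authors' values were taken as FPKM from their form: value times transcript length in kilobases summed to 1.2 to 1.248 M per library, and RPKM would look alike. Scaling by a library's total lets a few abundant genes move all others. Depth was estimated from the steps between low values, and with FPKM in place of counts no counting intervals are given.

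Of 23183 symbols, 22148 (95.5%) matched GENCODE M21, used for positions and overlaps, and 3607 were listed at 0 in every library. Tests were limma-trend (limma 3.58.1, R 4.3.3) on log2(FPKM + 1), over genes averaging 1 FPKM or more in the compared libraries, with Benjamini-Hochberg adjustment over all of them and a two-sided threshold of 0.05. There were 5 comparisons: irradiated against control in each region, hippocampus against prefrontal cortex in each treatment, and the difference of the irradiation effects. The test was checked on simulated data. Alternatives were a pseudocount of 0.1, no filter, equal totals, median-ratio size factors, 1 fit over all libraries, robust moderation, a block for the replicate number or mouse, and leaving out each library. The fit of all 6 mice with the mouse as a block was added after the data were seen. Hippocampus and prefrontal cortex of the same number come from the same mouse per the titles. Deviations from group means of such pairs correlated at -0.0060 to 0.30 across genes. Irradiated and control mice of the same number are different mice. Their deviations correlated at 0.103, -0.017 and -0.16 in hippocampus. In prefrontal cortex they correlated at 0.141, 0.12 and 0.117, where every pair was above 0.1. The titles name no pairing of irradiated with control mice. The main tests therefore used no block for the number, and such a block was only an alternative. Values per library are given for members past the threshold and, where none passed, for the 4 of smallest p, and other genes by smallest p in their list. The members and gene lists were chosen with earlier results of these data known. The markers of hippocampal fields and cortical layers were added after the data were seen. The promoters of 5 members were not analysed here. Some further genes of synthesis and its control are not reported here.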

Additional observations from a re-analysis of the deposited data

How the results depend on the processing

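No called member changed direction under an alternative. The members' median irradiation difference, near 0 in both regions, did change sign: with a library left out it ran from -0.0239 to 0.0497 in hippocampus and from -0.0206 to 0.0319 in prefrontal cortex. For irradiation, 0 members passed under every alternative in either region, and with the replicate number as a block the counts stayed at 0 members, with medians of 0.01 in hippocampus and -0.0039 in prefrontal cortex and 0 and 1 genes past the threshold. The block changed no call there. The members' median moved to 0.095 in hippocampus and 0.0684 in prefrontal cortex with equal totals. Over all genes, the count past the threshold in hippocampus was 4 with equal totals, 1 with 1 fit over all 12 libraries, 3 with robust moderation, and 0 to 1 with a library left out. In prefrontal cortex it was 2 without the filter, 0 with 1 fit over all 12 libraries, and 1 to 4 with a library left out. For the difference of the effects it was 1 without the filter and 0 to 2 with a library left out. Between the regions, the mouse as a block gave 2 members higher and 8 lower in irradiated mice and 2 higher and 9 lower in control mice. The 6 mice in 1 fit gave 4 higher and 16 lower, with 6584 genes past the threshold. In irradiated mice the members higher were 0 without the filter and 1 with equal totals, and leaving out a library gave 0 to 1 higher and 4 to 8 lower. In control mice it gave 1 to 2 higher and 4 to 7 lower. Among single members, 383 alternatives kept direction and side of the threshold and 31 lost the call. The 383 include the 4 members of smallest p in each comparison without a called member. These had an adjusted p of 0.475 or more in the main fit and no call to lose, so the 383 overstate how stable the calls were. The cause of these shifts was not tested. Depth was only estimated, and log2(FPKM + 1) shrinks differences of low genes such as Stard4.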
